A study of Mus musculus with 12 samples.

Results

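The comparison described here set the livers of C57BL/6 mice that were on the MASLD diet and given 1x Aza-TdC (3 samples, numbered 2, 4 and 5) against livers of mice on the same diet alone (3 samples, numbered 3, 4 and 5). MASLD is metabolic dysfunction-associated steatotic liver disease, and both groups carried the diet, so that the treatment was the labelled difference between them. These 6 of the 12 samples of the series were chosen by their labels, with no use of measured values, and every gene that passed a filter on low counts was taken, 13866 of 22984 with any count. The other 6 samples, used as reference levels, were 3 livers on the MASLD diet with 0.1x Aza-TdC and 3 livers on the Standard diet with no treatment. The labels give no absolute dose, duration, age or vehicle for the samples on the diet alone, and nothing in them ties each sample to an animal of its own. The p-values therefore rest on the scatter among these libraries, which may be partly technical. One 1x sample is numbered 5 in its title and 8 in its library name, and its title was followed.

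Aza-TdC is a deoxycytidine analogue that is phosphorylated in the cell, built into DNA in place of deoxycytidine and traps DNA methyltransferases there. DNMT1, the enzyme that copies methylation onto newly made DNA, is depleted as protein by this trapping, so the agent can lower DNMT1 without a change in its transcript. In steatotic liver, hepatocytes store triglyceride in droplets, macrophages from the blood enter, and stellate cells lay down matrix. Nucleoside analogues of this kind are known from tumour cells for switching on interferon-stimulated genes, germline genes and antigen presentation.

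The libraries held 33456244 to 41852606 counts, with more in the 1x group (36664790 to 41852606) than in the MASLD group (33456244 to 35122964). The first principal component of the 6 libraries took 46% of the variance and separated the groups, with MASLD sample 5 nearest to the 1x side. A trend with transcript GC content and length took 18.6% of the variance in 1x sample 2 and 12.1% in MASLD sample 5, against 0.627% to 6.8% in the other 4. The libraries were liver by their markers, with albumin at 60104 to 86774 CPM (counts scaled to the size of each library, as counts per 1e6).

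By edgeR's quasi-likelihood test with Benjamini-Hochberg adjustment, 431 of the 13866 genes (3.11%) had an adjusted p under 0.05 and are said to have passed. Of these, 207 were higher with 1x Aza-TdC (1.49%) and 224 were lower (1.62%), and 186 differed by at least 2-fold, 69 upward and 117 downward. With the trend with GC content and length removed, the split was 387 higher and 266 lower. The 3 samples of one group lay wholly above or below the 3 of the other for 429 of the 431, where over all genes tested 13.5% lay wholly above and 14.3% wholly below. The plot of all genes marks 4 groups of gene lists among them.

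**Figure D1:**
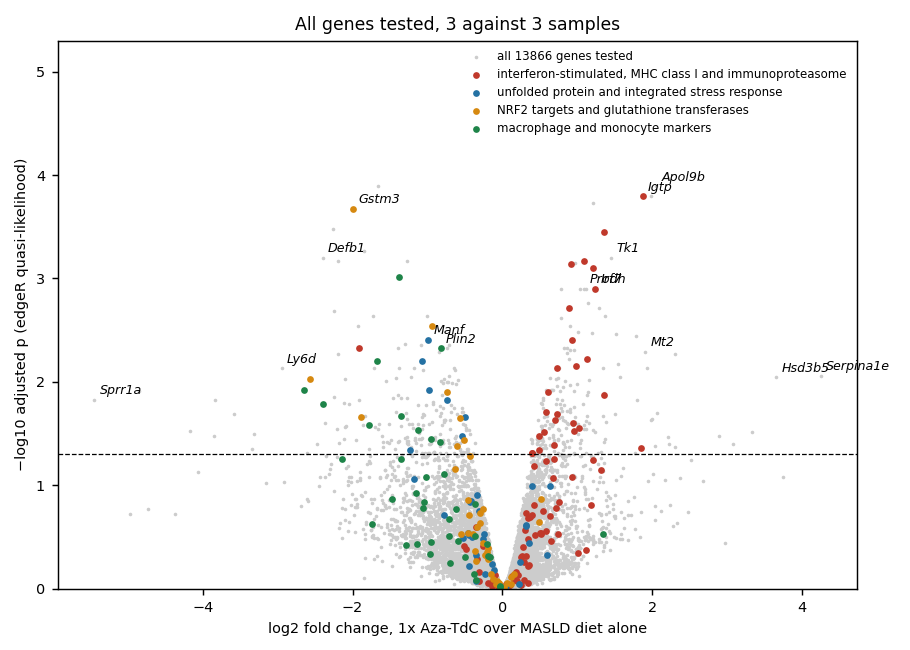
Each point is 1 of the 13866 genes, with the log2 fold change of 1x Aza-TdC over the MASLD diet alone on the x axis and −log10 of the adjusted p on the y axis; the dashed line marks 0.05 and colours mark 4 groups of gene lists. Of the interferon, MHC class I and immunoproteasome genes, those that passed lie on the right, with H2-Q1 the exception on the left. Those that passed higher were 14 of 66 interferon genes and 12 of 26 class I and immunoproteasome genes, and most others lie below the line. The chaperone, glutathione transferase and macrophage genes that passed lie on the left.

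The number of calls depended on single libraries. It was 84 without MASLD sample 4, 104 without MASLD sample 3, 145, 159 and 213 without 1x samples 2, 4 and 5, and 395 without MASLD sample 5. With each of the 6 libraries left out in turn, 70 genes passed every time, 39 of them higher and 31 lower. A gene is said below to have held where it is 1 of these 70. For each other gene the highest adjusted p over the 6 fits is given with the library left out for it. The plot of calls with a library left out gives both directions.

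**Figure D2:**
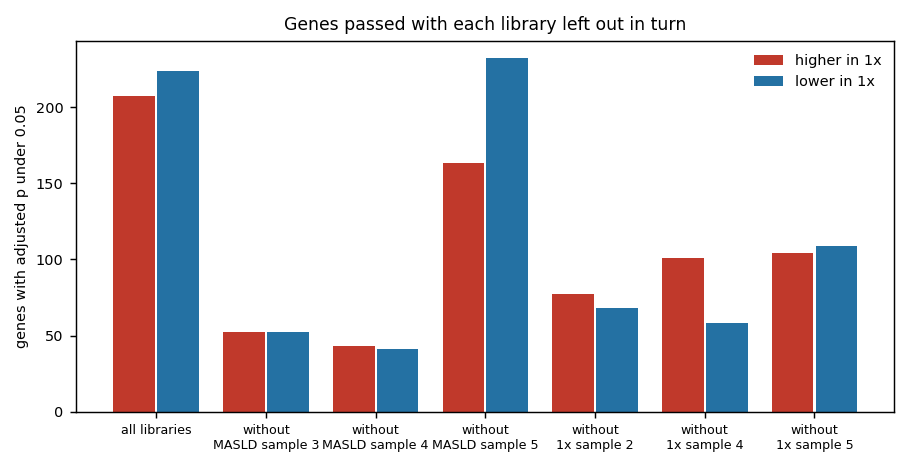
Bars give the number of genes with an adjusted p under 0.05, higher (red) or lower (blue) with 1x Aza-TdC, with all libraries and with each of the 6 compared libraries left out; the same 13866 genes were tested each time. Counts are lowest without MASLD sample 4 (43 higher, 41 lower) and nearest to the full count without MASLD sample 5 (163 higher, 232 lower).

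Interferon-inducible genes rose together. Type I and type II interferons act through promoter elements called ISRE and GAS, and the genes they induce include GTPases that attack vacuoles, nucleic acid sensors and the proteasome subunits that cut peptides for MHC class I. Of 66 interferon-stimulated genes tested, 14 rose and 0 fell (21.2% higher, against 1.49% of all genes), with a median log2 fold change of 0.43 beside −0.0048 for all genes. Summed over the list, expression was 1244, 1236 and 1249 CPM in the MASLD samples and 1916, 1703 and 1704 CPM in the 1x samples, with no overlap. With 1 library left out, 5 to 10 of the 66 rose, with 5 rising without each of 1x sample 2 and MASLD samples 3 and 4, and without 1x sample 2 the median was 0.42.

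Igtp, an immunity-related GTPase, stood at 16.3, 17.9 and 21.6 CPM in MASLD samples 3, 4 and 5 and at 77.4, 65.9 and 61 CPM in 1x samples 2, 4 and 5. Every 1x sample was above every MASLD sample, with 1x sample 2 highest, and the log2 fold change was 1.87 ± 0.18 (SE, adjusted p = 0.00016). Its neighbour Irgm2, a regulator of the same GTPases, rose from 27.9, 27.4 and 34.9 to 88.2, 74.4 and 68.6 CPM (1.36 ± 0.15, adjusted p = 0.000354), again without overlap. Irf7, the transcription factor that amplifies the type I response, rose from 26.2, 17.9 and 23 to 64.8, 44.8 and 48.9 CPM (1.24 ± 0.17, adjusted p = 0.00126). All of these held. The annotated span of Irgm2 overlaps Igtp on chromosome 11, so how reads in the shared stretch were assigned bears on both.

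Further genes of the list that rose, chosen here after their values were seen, were Usp18, which trims ISG15 from proteins (1.13 ± 0.19, adjusted p = 0.00601), and Ifi27 (0.98 ± 0.17, adjusted p = 0.00708), and both held. Zbp1, a sensor of Z-form nucleic acid, rose by 1.35 ± 0.26 (adjusted p = 0.0133, up to 0.0832 without MASLD sample 4). Irf9, the DNA-binding part of the ISGF3 complex, rose by 0.61 ± 0.12 (adjusted p = 0.0125, up to 0.0617 without MASLD sample 3). The guanylate-binding proteins Gbp3 (0.94 ± 0.21, adjusted p = 0.0251) and Gbp7 (1.02 ± 0.23, adjusted p = 0.0278) rose too, losing the call without 1x sample 2 (up to 0.108) and without MASLD sample 4 (up to 0.157) respectively. Several textbook members did not pass: Isg15 at 0.69 ± 0.18 (adjusted p = 0.0557), Ifit1 at 0.65 ± 0.34 (adjusted p = 0.347), Oasl2 at 0.06 ± 0.27 (adjusted p = 0.953) and Gbp2 at −0.13 ± 0.24 (adjusted p = 0.857).

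Promoter sequence was then read for these genes. RefSeq promoter windows (build GRCm38.p6, 250 bases before to 50 after the start) existed for 10385 of the genes tested. An ISRE core (GAAA, any 2 bases, GAAA, on either strand) lay in 3.23% of these windows, in 12.2% of the 156 windows of genes that rose, in 2.33% of the 172 of genes that fell, and in 58.1% of the 43 windows of the interferon list. A GAS core (TTC, any 3 bases, GAA) lay in 7.1%, 9.62%, 5.23% and 32.6% of the same sets. A GAS core followed after 2 bases by an ISRE core lay in 4 of the 10385 windows, those of Igtp, Irgm2, Tgtp1 and Tgtp2, an arrangement that was noticed in the printed sequences and then counted. Below are the 120 bases before the start for genes of this family and for 2 guanylate-binding proteins, shown because these elements lie close to the start. Capitals mark the ISRE and GAS cores, and neighbouring cores can overlap.
Igtp, chr11:58199436-58199555, plus strand: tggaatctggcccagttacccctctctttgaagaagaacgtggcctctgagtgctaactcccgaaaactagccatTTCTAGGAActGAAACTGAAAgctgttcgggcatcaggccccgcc
Irgm2, chr11:58214857-58214976, plus strand: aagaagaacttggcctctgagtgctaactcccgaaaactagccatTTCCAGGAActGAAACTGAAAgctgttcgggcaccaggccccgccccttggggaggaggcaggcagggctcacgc
Tgtp1, chr11:48992247-48992366, minus strand: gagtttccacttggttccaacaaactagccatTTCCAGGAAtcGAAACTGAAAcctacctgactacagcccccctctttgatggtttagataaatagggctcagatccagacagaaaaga
Irgm1, chr11:48871421-48871540, minus strand: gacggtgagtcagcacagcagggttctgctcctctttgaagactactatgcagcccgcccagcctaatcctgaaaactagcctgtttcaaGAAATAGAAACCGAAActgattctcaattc
Gbp3, chr3:142559924-142560043, plus strand: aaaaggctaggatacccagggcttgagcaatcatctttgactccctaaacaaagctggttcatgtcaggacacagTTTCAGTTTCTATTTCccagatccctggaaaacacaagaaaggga
Gbp7, chr3:142530216-142530335, plus strand: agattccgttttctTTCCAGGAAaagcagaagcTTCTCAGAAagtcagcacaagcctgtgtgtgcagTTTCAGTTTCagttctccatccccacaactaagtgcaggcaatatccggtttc

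Igtp and Irgm2 share nearly the same stretch around the paired elements, with the GAS core starting 45 bases before the start in Igtp and 75 in Irgm2. In Irgm1 and Gbp3 the ISRE cores come as an overlapping pair, starting 30 and 24 bases before the start in Irgm1 and 45 and 39 in Gbp3. Irgm1 rose by 0.69 ± 0.17 (adjusted p = 0.0405, up to 0.188 without MASLD sample 4). Tgtp1, low at 0.695, 1.08 and 1.11 CPM against 4.5, 2.45 and 3.44 CPM, rose by 1.84 ± 0.46 (adjusted p = 0.0432, up to 0.183 without MASLD sample 3), and it lost the call without any 1 of the 6 libraries. Its near copy Tgtp2 stood at 0.74 ± 0.35 (adjusted p = 0.295), and reads shared between the pair make both uncertain. A match is a description of the letters, and not every gene that rose had one. Of the interferon and class I genes that rose, Irf7, Irf9, Psmb9, Psmb10, Tap1, H2-Q4, H2-Q6 and H2-Q7 had neither core in their windows. The sequences printed above all hold a match, so they do not stand for all genes that rose.

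Some transcripts of antigen presentation by MHC class I rose as well. Of 26 genes of MHC class I and the immunoproteasome, 12 rose and 1 fell (46.2% and 3.85%), with a median of 0.39; 6 to 9 rose with 1 of the 6 libraries left out. Psmb8, a catalytic subunit of the immunoproteasome, measured 23.1, 21.9 and 20.6 CPM in the MASLD samples and 40.5, 39.1 and 43.9 CPM in the 1x samples, and rose by 0.91 ± 0.11 (adjusted p = 0.000727). The other catalytic subunits Psmb9 (0.92 ± 0.14, adjusted p = 0.00394) and Psmb10 (0.89 ± 0.12, adjusted p = 0.00195) rose by nearly the same amount, and all of these held. Tap1, which carries peptides into the endoplasmic reticulum, rose by 0.73 ± 0.15 (adjusted p = 0.0205, up to 0.11 without MASLD sample 4), and Nlrc5, the transactivator of class I genes, by 0.95 ± 0.22 (adjusted p = 0.0297, up to 0.153 without MASLD sample 3).

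The class I genes that rose were of the non-classical Q and T regions. H2-Q7 went from 30.9, 28.7 and 34.4 to 76.7, 62.2 and 60.2 CPM (1.08 ± 0.13, adjusted p = 0.000672) and H2-Q6 from 16.4, 18.6 and 20.3 to 50.1, 36.1 and 41.3 CPM (1.21 ± 0.15, adjusted p = 0.000791). H2-Q1 fell from 10.5, 10.3 and 5.8 to 3.07, 2.4 and 1.56 CPM (−1.91 ± 0.31, adjusted p = 0.00473). These 3 held, but H2-Q genes are near-identical to each other, so their separate values depend on how shared reads were counted. The classical H2-K1 (0.27 ± 0.15, adjusted p = 0.394) and B2m (0.25 ± 0.17, adjusted p = 0.496) did not pass, and the summed level of the list, which these abundant genes dominate, overlapped between groups (7931 to 8993 CPM against 8237 to 9206 CPM).

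Apol9b and Apol9a, interferon-inducible apolipoprotein L genes of the mouse that lay outside the lists, were among the 10 largest rises. Apol9b measured 25.8, 18 and 32.4 CPM in the MASLD samples and 116, 95.3 and 106 CPM in the 1x samples, a log2 fold change of 2.05 ± 0.19 (adjusted p = 0.000128), and Apol9a rose by 1.98 ± 0.19 (adjusted p = 0.00016). Both held, and both are near-identical copies on chromosome 15, so they may share reads. The plot of values by sample shows these patterns beside both reference groups.

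**Figure D3:**
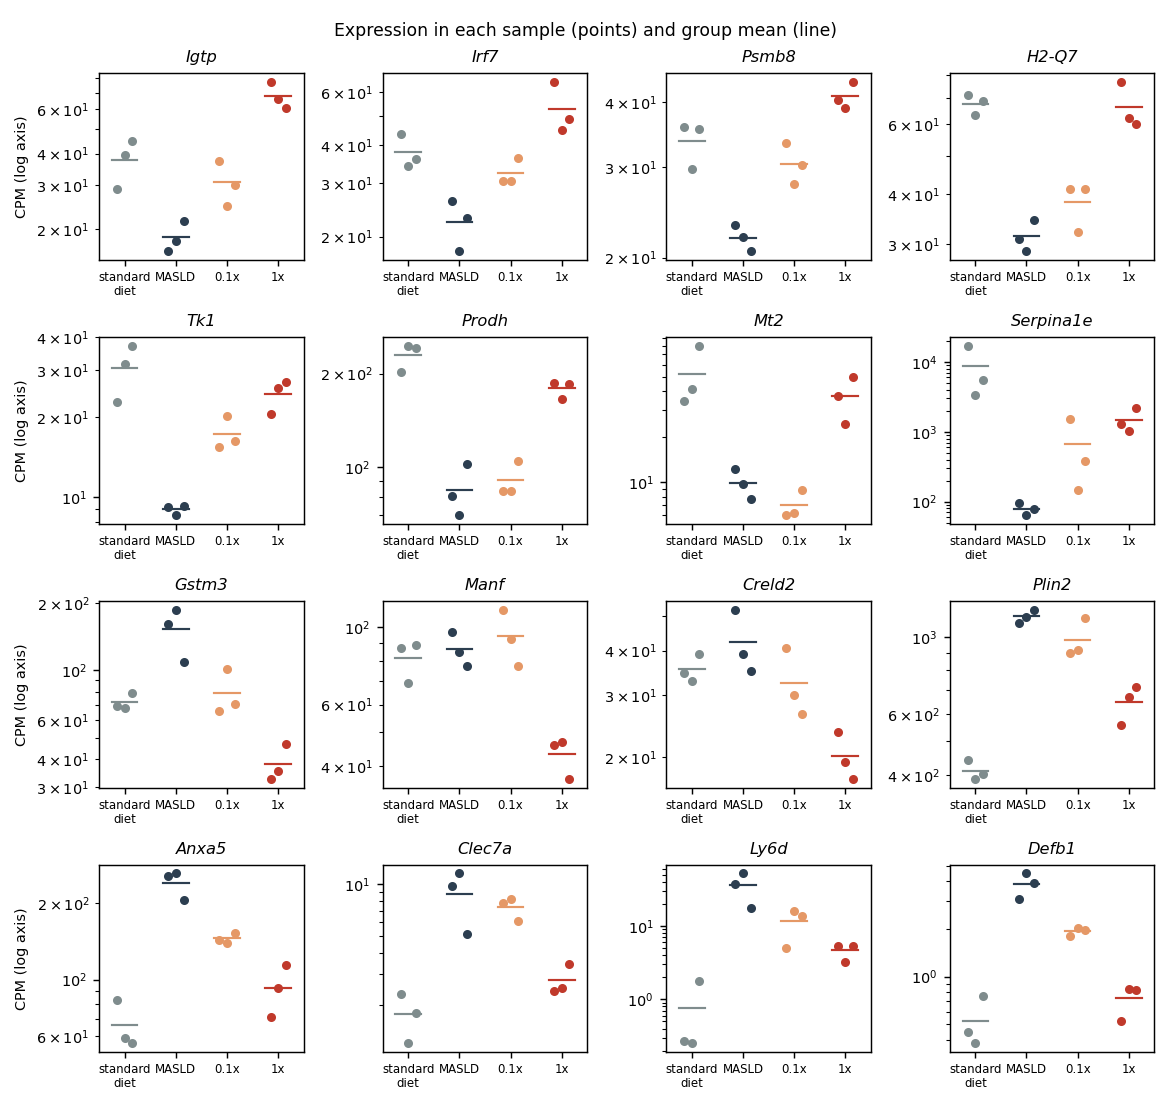
Points are CPM in each sample on a log axis for 16 genes, with a line at the group mean, for the Standard diet, the MASLD diet alone, and the diet with 0.1x or 1x Aza-TdC (3 samples each). In each panel the 3 samples at 1x lie wholly above (first 8 panels) or wholly below (last 8 panels) the 3 MASLD samples.

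Genes that mark infiltrating macrophages and their antigen presentation by MHC class II moved the other way. Of 19 markers of monocytes and monocyte-derived macrophages, 6 fell and 0 rose (31.6% lower, against 1.62% of all genes), all 19 had a log2 fold change below 0, and the median was −0.97. Their summed level was 210, 231 and 124 CPM in the MASLD samples and 93.9, 81.2 and 107 CPM in the 1x samples, without overlap, MASLD sample 5 lying nearest to the 1x range. With 1 library left out, 1 to 8 of the 19 fell, with 1 falling without each of 1x samples 2 and 4 and MASLD samples 3 and 4. In bulk liver, fewer cells of a type and less RNA per cell cannot be told apart. Erythroid and blood markers were lower in the same libraries, at 705, 409 and 438 CPM summed against 202, 357 and 322 CPM, without overlap. Of 8, 2 haemoglobin genes fell and 0 rose (25% lower), 7 were below 0 and the median was −0.82, with 0 to 1 falling with 1 library left out. The part of blood content in the falls of macrophage and monocyte markers was not tested.

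Clec7a, the receptor for fungal glucans on macrophages, measured 9.76, 11.5 and 5.17 CPM against 2.4, 2.5 and 3.44 CPM (−1.67 ± 0.28, adjusted p = 0.00627), and held. Ccr2, the receptor that brings monocytes in from the blood, fell from 1.81, 2.69 and 0.768 to 0.315, 0.312 and 0.37 CPM (−2.39 ± 0.48, adjusted p = 0.0163, up to 0.114 without MASLD sample 4). The groups did not overlap in either, and MASLD sample 5 was the lowest of its group in both. S100a11 (−1.35 ± 0.28, adjusted p = 0.0212) lost its call without MASLD sample 4 (up to 0.122).

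Of 20 markers of lipid-associated macrophages, the cells that gather around fat-laden hepatocytes, 4 fell and 0 rose (20% lower), with a median of −0.77 and 2 to 8 falling with 1 library left out. The 4 were Mmp12, Anxa5, Plin2 and Spp1. Plin2 and Spp1 are counted again below, among droplet genes and cholangiocyte markers, so these calls are not separate from those. Mmp12, a macrophage elastase, fell from 4.86, 8.49 and 2.97 to 0.673, 0.36 and 1.59 CPM (−2.65 ± 0.50, adjusted p = 0.012, up to 0.0863 without MASLD sample 4). Anxa5 fell from 255, 262 and 205 to 71.2, 92.4 and 114 CPM (−1.38 ± 0.18, adjusted p = 0.000976) and held, though it is expressed in other liver cells too. Trem2, the receptor that defines these cells, stood at 2.75, 3.59 and 0.98 CPM against 0.757, 1.18 and 0.687 CPM, overlapping and not past the test (−1.48 ± 0.50, adjusted p = 0.137).

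Of 19 markers of resident Kupffer cells, 2 fell (10.5%) and 1 rose (5.26%), 15 were below 0 and the median was −0.59. With 1 library left out, 0 to 5 fell and 0 to 1 rose, the most falls being without 1x sample 2. Csf1r (−1.25 ± 0.30, adjusted p = 0.0372, up to 0.163 without MASLD sample 3) and Vsig4 (−1.08 ± 0.27, adjusted p = 0.0411, up to 0.169 without MASLD sample 4) fell, and the scavenger receptor Marco rose (1.77 ± 0.45, adjusted p = 0.0488, up to 0.225 without MASLD sample 4). With the GC and length trend removed, Vsig4 no longer passed. The Kupffer markers summed to 848, 722 and 676 CPM against 707, 536 and 583 CPM, which overlapped.

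Of 17 genes of the MHC class II pathway, 3 fell and 0 rose (17.6% lower), with a median of −0.96; 0 to 5 fell with 1 library left out. H2-Aa, a class II chain, measured 48.1, 61.8 and 25.8 CPM against 11.7, 10.8 and 21.9 CPM (−1.61 ± 0.38, adjusted p = 0.0332, up to 0.176 without MASLD sample 4), and H2-Ab1, its partner, fell by 1.51 ± 0.37 on the log2 scale (adjusted p = 0.0389, up to 0.204 without MASLD sample 4). In H2-Aa the groups stood apart by a small gap between MASLD sample 5 and 1x sample 5. The class II genes are expressed by the macrophages and dendritic cells whose markers were lower in the same libraries, and the part of cell number in their fall was not tested. Of the dendritic markers, Flt3, a receptor of dendritic precursors, had 25, 25 and 12 counts in the MASLD samples and 1, 0 and 1 in the 1x samples. Set against library size, its ratio of MASLD to 1x was 36.2 (exact 95% interval 9.62 to 306, counting error only), and it passed at an adjusted p of 0.0123 (up to 0.0561 without 1x sample 2).

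Markers of lymphocytes and of sinusoidal endothelium gave no calls. Of 20 T and NK cell markers and 11 B and plasma cell markers, 0 passed, with T and NK markers summing to 13.8, 13.4 and 7.07 CPM against 10.6, 10.7 and 15.8 CPM. The 21 endothelial markers had a median of 0.04 and 0 calls, and summed to 428 to 484 CPM against 413 to 505 CPM. The T-cell kinase Zap70 stood at 1.04 ± 0.32 (adjusted p = 0.0913). The plot of summed markers shows the groups apart for the lipid-associated macrophage, monocyte and cholangiocyte markers and overlapping for the other types drawn. The lipid-associated macrophage sum includes the abundant droplet gene Plin2, whose own values are given below with the lipid storage genes.

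**Figure D4:**
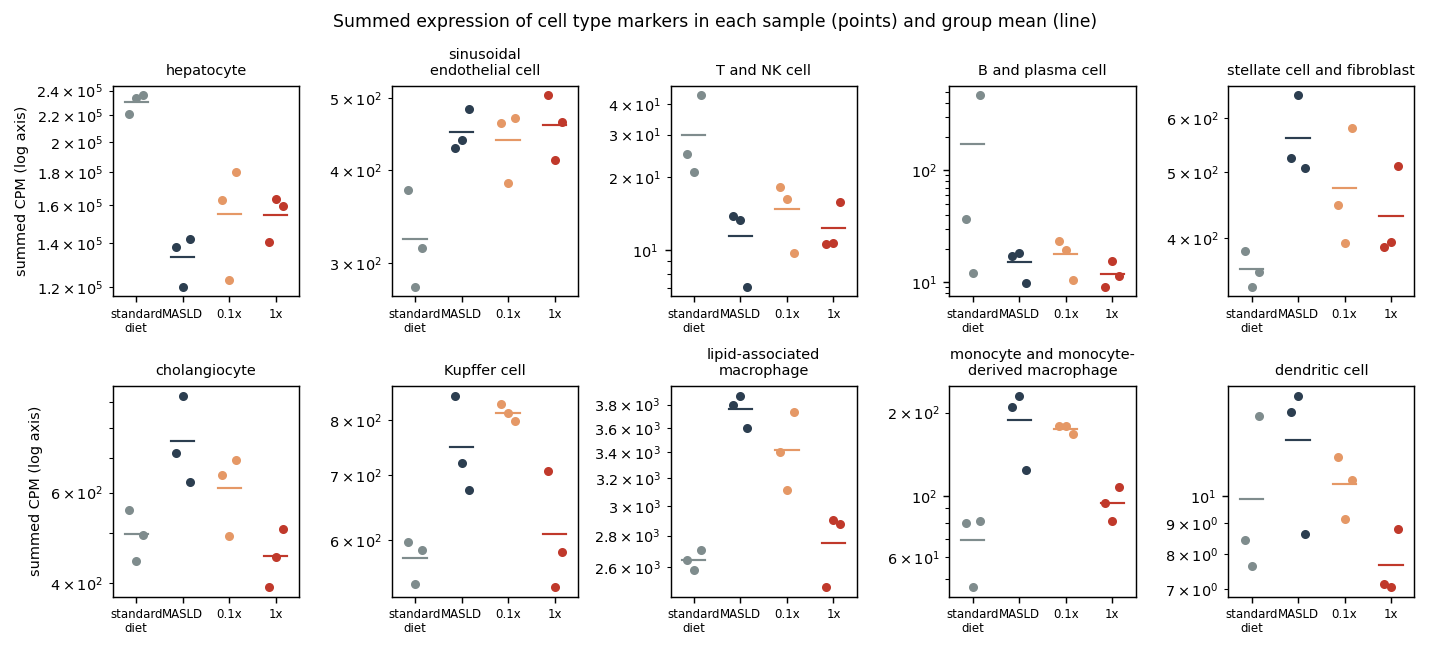
Points are the summed CPM of the tested markers of 10 cell types in each sample on a log axis, with a line at the group mean. Monocyte and lipid-associated macrophage markers are lower in all 3 samples at 1x (81.2 to 107 and 2483 to 2904 CPM) than in all 3 MASLD samples (124 to 231 and 3597 to 3881 CPM). The fall of Plin2, an abundant lipid droplet gene, is part of the fall in the lipid-associated macrophage sum.

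Biliary and matrix genes were lower as well. Of 15 cholangiocyte markers, 4 fell and 0 rose (26.7% lower), all 15 were below 0 and the median was −1.09; 0 to 3 fell with 1 library left out. Spp1, which encodes osteopontin and is also made by macrophages, measured 43, 139 and 35.7 CPM against 19, 20.7 and 23.6 CPM, the MASLD sample 4 standing far above the others (−1.79 ± 0.40, adjusted p = 0.0264, up to 0.121 without MASLD sample 4). Krt8 (−0.70 ± 0.15, adjusted p = 0.0232, up to 0.139 without MASLD sample 4), a keratin that hepatocytes share, also fell. Krt19, which is particular to bile ducts, was low at 0.417, 2.21 and 0.662 CPM against 0.378, 0.312 and 0.74 CPM and did not pass (adjusted p = 0.366).

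Ly6d, a lipid-anchored surface protein, fell from 38, 52.3 and 17.5 to 5.38, 3.21 and 5.36 CPM (−2.95 ± 0.51, adjusted p = 0.00742). Defb1, an epithelial defensin, fell from 3.09, 4.49 and 3.92 to 0.526, 0.84 and 0.819 CPM (−2.40 ± 0.28, adjusted p = 0.000627). Both held, with every 1x sample below every MASLD sample. Sprr1a, a cornified envelope protein, had 90, 51 and 32 counts in the MASLD samples and 0, 0 and 4 in the 1x samples, a ratio of 50.6 (exact 95% interval 19.4 to 188, counting error only). It passed at an adjusted p of 0.0149, up to 0.0691 with 1 library left out, and did not pass with DESeq2.

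Of 49 genes of fibrosis and extracellular matrix, 4 fell and 0 rose (8.16% lower), 45 were below 0 and the median was −0.65; 0 to 6 fell with 1 library left out. Of the 4, Mmp12 and Spp1 are also counted above among the cell type markers. Ccn2, the connective tissue growth factor, fell from 11.7, 14.7 and 16.7 to 7.04, 8.54 and 8.56 CPM (−0.84 ± 0.18, adjusted p = 0.0212, up to 0.113 without MASLD sample 4). Collagen Col1a1 measured 8.95, 22.1 and 7.5 CPM against 2.35, 2.57 and 8.88 CPM, overlapping, and did not pass (−1.5 ± 0.71, adjusted p = 0.299). Timp1 (−2.28 ± 0.62, adjusted p = 0.0617) and Acta2 (−0.56 ± 0.76, adjusted p = 0.796) did not pass either. Of the 21 stellate cell markers only Reln fell (−0.71 ± 0.13, adjusted p = 0.00886, up to 0.0676 without MASLD sample 4).

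The chaperones of the endoplasmic reticulum fell together. When unfolded protein builds up in this compartment, the sensors IRE1, PERK and ATF6 raise chaperones such as BiP (Hspa5), partly through a promoter element called ERSE. Of 35 genes of the unfolded protein and integrated stress responses, 7 fell and 0 rose (20% lower), with a median of −0.35 and 2 to 6 falling with 1 library left out. Manf, a secreted chaperone of the ATF6 arm, measured 96.9, 84.6 and 77.2 CPM against 46, 47.1 and 36.8 CPM (−0.99 ± 0.15, adjusted p = 0.00393). Creld2 fell from 52.2, 39.2 and 35.1 to 23.5, 19.4 and 17.3 CPM (−1.07 ± 0.18, adjusted p = 0.00627), and both held without overlap.

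Hspa5, abundant at 841, 734 and 740 CPM, measured 493, 474 and 414 CPM with 1x Aza-TdC (−0.75 ± 0.15, adjusted p = 0.0149, up to 0.0787 without MASLD sample 3). Hyou1, its exchange factor, fell by 0.98 ± 0.19 on the log2 scale (adjusted p = 0.012, up to 0.0626 without MASLD sample 3) and Xbp1, the factor spliced by IRE1, by 0.50 ± 0.11 (adjusted p = 0.0217, up to 0.1 without MASLD sample 4). The others that fell, named after their values were seen, were Atf5, a transcription factor of the integrated stress response (−0.54 ± 0.13, adjusted p = 0.0334, up to 0.168 without MASLD sample 3), and Mthfd2, a mitochondrial folate enzyme (−1.23 ± 0.31, adjusted p = 0.0454, up to 0.198 without MASLD sample 4). The death-associated factor Ddit3 (−0.23 ± 0.24, adjusted p = 0.73) and Trib3 (−0.46 ± 0.22, adjusted p = 0.292) did not pass.

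The ERSE (CCAAT, any 9 bases, CCACG, on either strand) lay in 18 of the 10385 promoter windows (0.173%), in 6 of the 32 windows of this list, and in 2 of the 5 windows of its members that fell. These are shown with 150 bases before the start and the element in capitals, which in Creld2 reads on the opposite strand.
Hspa5, chr2:34771940-34772089, plus strand: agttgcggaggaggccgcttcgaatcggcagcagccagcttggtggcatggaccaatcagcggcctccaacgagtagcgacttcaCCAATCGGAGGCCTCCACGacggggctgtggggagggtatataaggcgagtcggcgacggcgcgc
Creld2, chr15:88819496-88819645, plus strand: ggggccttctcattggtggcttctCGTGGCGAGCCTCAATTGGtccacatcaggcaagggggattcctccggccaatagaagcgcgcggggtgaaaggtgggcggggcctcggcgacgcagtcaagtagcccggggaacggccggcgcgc

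The 150 bases printed for Hspa5 and Creld2 hold 16 and 15 CpG, and the 120 bases printed for the interferon genes above hold 0 to 4. These lengths differ, and the genes were picked for their elements, so the counts do not compare falls with rises. Not printed above, the 150 bases of Atf5, Xbp1 and Mthfd2, which fell, hold 17, 8 and 7. The 120 bases of other interferon and class I genes that rose hold from 2 (Tap1) to 10 (Psmb9 and Psme1). Over whole windows, the median CpG number was 20 for all genes tested, 12 for genes that rose and 17 for genes that fell. DNA methylation itself was not measured in these samples.

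Enzymes that conjugate glutathione fell. NRF2 is the transcription factor that raises such enzymes under oxidative stress. Of 41 of its targets and glutathione transferases, 8 fell and 0 rose (19.5% lower), 34 were below 0 and the median was −0.26; 2 to 9 fell with 1 library left out. Gstm3 measured 161, 187 and 109 CPM against 32.6, 35.5 and 46.7 CPM (−1.99 ± 0.21, adjusted p = 0.000212). Gstm2 fell from 123, 108 and 99.5 to 54.8, 56.2 and 62 CPM (−0.94 ± 0.14, adjusted p = 0.0029), and both held.

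Gsta1 fell from 12.6, 17.2 and 5.22 to 1.05, 1.92 and 2.99 CPM (−2.57 ± 0.46, adjusted p = 0.00937, up to 0.056 without MASLD sample 4). Srxn1, which repairs peroxiredoxins, fell by 0.74 ± 0.14 on the log2 scale (adjusted p = 0.0125, up to 0.0709 without MASLD sample 3). The archetypal NRF2 targets Nqo1 (−0.45 ± 0.18, adjusted p = 0.196) and Hmox1 (−0.09 ± 0.21, adjusted p = 0.899) did not pass. The Gstm genes are close copies in a cluster on chromosome 3, and shared reads could move values between them.

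Lipid storage genes fell in part. Plin2, which coats lipid droplets, measured 1099, 1143 and 1198 CPM against 556, 671 and 715 CPM (−0.82 ± 0.13, adjusted p = 0.00473), held, and showed no overlap. Of 33 genes of droplets and fatty acid uptake, 4 fell and 0 rose (12.1% lower), with a median of −0.08 and 1 to 5 falling with 1 library left out. The fatty acid carrier Fabp4 (−0.81 ± 0.16, adjusted p = 0.0133, up to 0.0675 without MASLD sample 3) and Pparg, the receptor that drives fat storage (−0.65 ± 0.16, adjusted p = 0.04, up to 0.181 without MASLD sample 4), were among them. Cidec, the droplet fusion protein, stood at 248, 236 and 220 CPM against 89.9, 115 and 182 CPM without overlap, but did not pass (−0.87 ± 0.25, adjusted p = 0.0828).

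In lipid synthesis, 4 of 37 genes fell and 0 rose (10.8% lower), with a median of 0.03 and 0 to 3 falling with 1 library left out. Elovl7, an elongase, had 38, 79 and 17 counts against 3, 1 and 6, a ratio of 15.7 (exact 95% interval 8.26 to 33.4, counting error only; adjusted p = 0.0149, up to 0.1 without MASLD sample 4). The desaturase Scd3 fell from 3.2, 3.59 and 4.37 to 1.6, 1.68 and 1.32 CPM (−1.28 ± 0.25, adjusted p = 0.0145, up to 0.0672 without MASLD sample 4), and Mogat1, which makes diacylglycerol, also fell (−1.02 ± 0.20, adjusted p = 0.0169, up to 0.0867 without MASLD sample 3). The main hepatic genes did not pass: Scd1 at −0.66 ± 0.19 (adjusted p = 0.0761), Fasn at −0.13 ± 0.34 (adjusted p = 0.907) and Srebf1 at 0.14 ± 0.19 (adjusted p = 0.792).

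Fatty acid oxidation gave 0 calls among 49 genes, with a median of −0.00033. Ppara, its master regulator, stood at 0.04 ± 0.20 (adjusted p = 0.961) and Cpt1a, which gates entry into mitochondria, at 0.04 ± 0.15 (adjusted p = 0.947). Fgf21 (−0.53 ± 0.26, adjusted p = 0.323) and its co-receptor Klb (0.21 ± 0.15, adjusted p = 0.524) did not pass. In sterol metabolism, Insig2, which holds the sterol sensor back, fell (−0.78 ± 0.17, adjusted p = 0.0236, up to 0.102 without 1x sample 4).

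Genes of the hepatocyte's amino acid catabolism rose as a group. Of 42 genes of the urea cycle and amino acid breakdown, 9 rose and 0 fell (21.4% higher), with a median of 0.28; 1 to 12 rose with 1 library left out, with 1 rising without each of 1x sample 2 and MASLD samples 3 and 4. Prodh, which opens proline breakdown, measured 80.5, 69.9 and 102 CPM against 187, 166 and 185 CPM (1.09 ± 0.15, adjusted p = 0.00126), held, and did not overlap. Tat, which breaks down tyrosine and is induced by glucocorticoids, measured 314, 314 and 513 CPM against 2205, 774 and 1001 CPM, with 1x sample 2 far above the rest (1.80 ± 0.35, adjusted p = 0.015, up to 0.102 without MASLD sample 4). Summed hepatocyte markers were 138153, 120027 and 141995 CPM against 140579, 163657 and 159364 CPM, which overlapped. Of the 19 hepatocyte markers 3 rose and 0 fell (15.8% higher), 16 were above 0 and the median was 0.25, and their mean log2(CPM + 1) was 11.06 to 11.30 in the MASLD samples and 11.45 to 11.54 in the 1x samples, without overlap. With 1 library left out, 0 to 4 of them rose. Their part in these rises was not tested. Got1 rose by 0.90 ± 0.17 (adjusted p = 0.0108, up to 0.0626 without MASLD sample 3).

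Glucocorticoid-responsive genes overlapped with these. Of 20 on the list, 8 rose and 0 fell (40% higher), with a median of 0.53; 1 to 7 rose with 1 library left out. Mt2, a metallothionein that binds zinc and copper, measured 12.2, 9.69 and 7.66 CPM against 37, 24.1 and 49.5 CPM (1.90 ± 0.31, adjusted p = 0.00513) and held. Its neighbour Mt1 rose by 1.5 ± 0.31 (adjusted p = 0.0203, up to 0.114 without MASLD sample 4). Tsc22d3, the glucocorticoid-induced leucine zipper, rose by 0.75 ± 0.17 (adjusted p = 0.029, up to 0.148 without MASLD sample 4), and Ddit4, an inhibitor of mTORC1, by 1.12 ± 0.22 (adjusted p = 0.0133, up to 0.0642 without 1x sample 2).

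Glucose metabolism and the clock also moved. Ppp1r3b, which targets a phosphatase to glycogen, measured 98.4, 83.4 and 112 CPM against 223, 169 and 198 CPM (1.00 ± 0.15, adjusted p = 0.0033) and held. Igfbp1, an insulin-repressed secreted protein, rose by 1.14 ± 0.22 (adjusted p = 0.0125, up to 0.0626 without MASLD sample 3), and Pck1, the gate of gluconeogenesis, by 1.01 ± 0.23 (adjusted p = 0.0322, up to 0.177 without MASLD sample 4). Of 34 genes of glucose, glycogen and insulin signalling, 4 rose and 0 fell (11.8% higher). Of the 34, 18 were above 0 and 16 below, with a median of 0.06 and 1 to 3 rising with 1 library left out.

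Of 18 core clock genes, 3 rose (16.7%) and 1 fell (5.56%). With 1 library left out, 0 to 2 rose and 0 to 1 fell, the fall passing without MASLD sample 5 alone. Ciart rose by 0.71 ± 0.15 (adjusted p = 0.02, up to 0.121 without MASLD sample 4) and the repressor Bhlhe41 fell from 4.2, 4.87 and 4.32 to 0.841, 1.56 and 1.37 CPM (−1.83 ± 0.39, adjusted p = 0.0212, up to 0.0993 without MASLD sample 4). The labels give no time of day or feeding state at collection, and the part of either in the glucocorticoid, glucose and clock genes was not tested.

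Several secreted and sex-biased hepatocyte genes rose by large amounts. Male-biased liver genes depend on the pulsed growth hormone of male rodents. Serpina1e, an alpha-1 antitrypsin gene, measured 94, 64 and 78 CPM against 1286, 1032 and 2163 CPM (4.25 ± 0.75, adjusted p = 0.00875, up to 0.0599 without MASLD sample 4). Hsd3b5, a male-specific steroid dehydrogenase, rose from 2.5, 3.82 and 5.51 to 44.8, 44.9 and 59.4 CPM (3.65 ± 0.65, adjusted p = 0.00905, up to 0.0593 without MASLD sample 3). Mup7, a major urinary protein, rose from 26.6, 12.3 and 38.6 to 220, 162 and 270 CPM (3.07 ± 0.76, adjusted p = 0.0403, up to 0.198 without MASLD sample 4), and lost its call without any 1 of the 6 libraries. Of 18 major urinary protein genes Mup7 alone passed, and 16 were above 0. Their summed level overlapped (7909 to 11165 CPM in the MASLD samples, 7579 to 12107 CPM at 1x). Their mean log2(CPM + 1) did not (4.40 to 4.89 against 5.20 to 5.60).

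The 1x samples lay wholly above the MASLD samples in Serpina1e, Hsd3b5 and Mup7, while in the reference groups these genes spread widely: Serpina1e was 8676 ± 7418 CPM (SD, n = 3) on the Standard diet and 674 ± 725 CPM (SD, n = 3) at 0.1x. Of 28 male-biased genes, 5 rose and 0 fell (17.9% higher), with a median of 0.50 and 1 to 4 rising with 1 library left out. The complement component C8b measured 43.8, 45.4 and 66.7 CPM against 150, 147 and 147 CPM (1.51 ± 0.23, adjusted p = 0.00348) and held. Of 23 female-biased genes, only Trim24 rose (0.80 ± 0.19, adjusted p = 0.0384, up to 0.204 without MASLD sample 4), and the median was 0.28. Serpina1, Hsd3b and Mup genes are families of near-identical copies, so the values of single members are uncertain.

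Some genes of bile acid and drug metabolism rose. Of 28 genes of bile acid synthesis and transport, 5 rose and 0 fell (17.9% higher), 15 were above 0 and 13 below, with a median of 0.10 and 0 to 4 rising with 1 library left out. The uptake carrier Slco1a1 measured 145, 156 and 195 CPM against 305, 321 and 360 CPM (0.99 ± 0.18, adjusted p = 0.0105, up to 0.0672 without MASLD sample 4). Cyp7a1, which sets the pace of bile acid production from cholesterol, measured 39.2, 43.9 and 33.7 CPM against 72.2, 150 and 69.2 CPM (1.32 ± 0.33, adjusted p = 0.0476), with 1x sample 4 highest, and lost its call without any 1 of the 6 libraries (up to 0.202 without 1x sample 4) and with DESeq2. Slc10a1, the sodium-dependent bile acid carrier, rose by 0.69 ± 0.17 (adjusted p = 0.0367, up to 0.188 without MASLD sample 4) and no longer passed with the GC and length trend removed. Of 40 genes of xenobiotic P450s and conjugation, 3 rose and 0 fell (7.5% higher), 23 were above 0 and 17 below, with a median of 0.11 and 0 to 3 rising with 1 library left out. Cyp2c54 rose by 1.58 ± 0.28 (adjusted p = 0.00905, up to 0.0606 without MASLD sample 4), with close relatives in its family, and Por, which feeds electrons to all microsomal P450s, by 0.81 ± 0.20 (adjusted p = 0.0389, up to 0.206 without MASLD sample 4).

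Few differences were detected in transcripts of the machinery that Aza-TdC acts on. Of 21 genes of DNA methylation and demethylation, 0 passed, with a median of −0.01. Dnmt1 measured 8.78, 8.82 and 9.75 CPM against 7.02, 7.32 and 10.3 CPM, overlapping (−0.15 ± 0.16, adjusted p = 0.73). Its partner Uhrf1 (−0.41 ± 0.57, adjusted p = 0.807) and the de novo enzymes Dnmt3a (−0.37 ± 0.17, adjusted p = 0.3) and Dnmt3b (0.26 ± 0.61, adjusted p = 0.897) did not pass. The SEs of Uhrf1 and Dnmt3b are wide, so a sizeable change in either could have gone undetected. Of 21 genes that take up, activate or break down such analogues, Tk1 rose, while Dck, the kinase that activates deoxycytidine, (−0.17 ± 0.22, adjusted p = 0.784) and the deaminase Cda (0.06 ± 0.23, adjusted p = 0.941) did not pass.

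Tk1, the thymidine kinase of the S phase, measured 9.12, 8.51 and 9.25 CPM against 20.6, 25.8 and 27 CPM (1.45 ± 0.17, adjusted p = 0.000629), held, and was wholly separate between groups. Other cell cycle genes did not rise with it: of 49, Tk1 alone rose, Kif20a (−1.28 ± 0.31, adjusted p = 0.0389, up to 0.181 without MASLD sample 4) and Cdc25b (−1.60 ± 0.40, adjusted p = 0.0429, up to 0.219 without MASLD sample 4) fell, 39 were below 0, and the median was −0.41. Among 39 p53 targets and DNA damage genes, Brca2 rose (1.11 ± 0.24, adjusted p = 0.0237, up to 0.121 without MASLD sample 4), and Cdkn1a, the classical p53 target, stood at 0.00 ± 0.29 (adjusted p = 0.998).

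Genes known to be silenced by DNA methylation were mostly not detectable at this depth. Of 35 germline genes, 19 had no count in any of the 12 libraries, where a count of 0 allows up to 3 counts per library, and 4 could be tested, with 0 calls. Of 30 imprinted genes tested, 0 passed, with a median of −0.01. Ribosomal protein genes (80) and nuclear subunits of oxidative phosphorylation (78) gave 0 calls as well, with medians of 0.06 and −0.02. The plot of gene lists sets these beside the lists that moved.

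**Figure D5:**
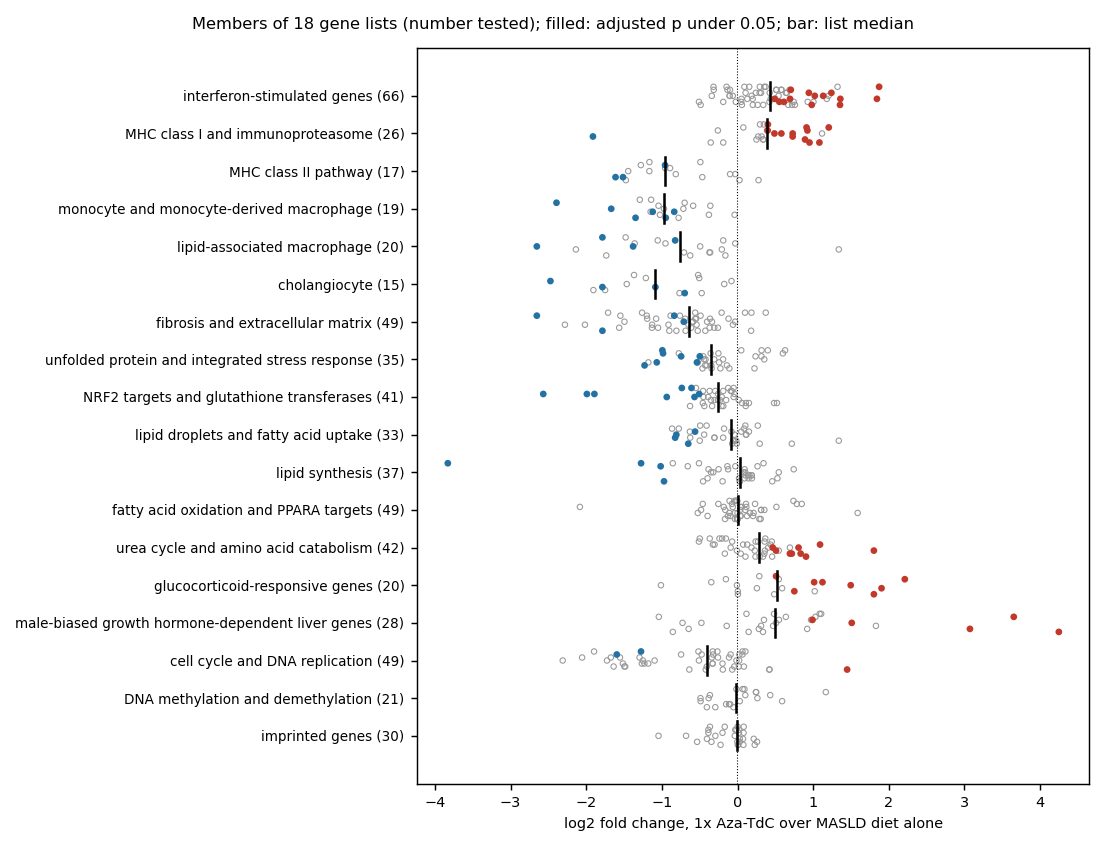
Each circle is a tested member of 1 of 18 gene lists, placed by its log2 fold change of 1x Aza-TdC over the MASLD diet alone; filled circles passed (red higher, blue lower), the bar is the list median and the dotted line the median of all genes (−0.0048). Interferon, MHC class I, amino acid and glucocorticoid lists sit to the right, macrophage, class II, cholangiocyte and matrix lists to the left, and the DNA methylation and imprinted lists at the middle.

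The same 1x libraries were set against the 0.1x group, with which they share the diet. Here 1802 of the 13866 genes passed (13%), 989 higher (7.13%) and 813 lower (5.86%) at 1x. The count was 219 without 1x sample 2, 791 without 1x sample 5, 1152 without 0.1x sample 1, and 575 once the GC and length trend was taken out. Mt2 was 7.03 ± 1.55 CPM (SD, n = 3) at 0.1x, below the MASLD level, and differed from 1x by 2.39 ± 0.32 (adjusted p = 0.00178). Manf was 93.9 ± 17.3 CPM (SD, n = 3) at 0.1x (−1.12 ± 0.15, adjusted p = 0.00214) and Ppp1r3b 75.8 ± 12.7 CPM (SD, n = 3) (1.38 ± 0.15, adjusted p = 0.00149). In these 3 genes the 0.1x level was near the MASLD level or on its far side from 1x, and the difference between doses passed with any 1 library left out.

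Igtp (1.15 ± 0.18, adjusted p = 0.00417), Irgm2 (1.22 ± 0.15, adjusted p = 0.0015), H2-Q7 (0.80 ± 0.13, adjusted p = 0.00505) and Prodh (0.99 ± 0.15, adjusted p = 0.003) were also higher at 1x than at 0.1x, and each passed with any 1 library left out. Of the 28 male-biased genes, 0 were higher and 1 was lower at 1x than at 0.1x, with a median of −0.55, and of 18 major urinary protein genes 0 were higher and 3 lower, with a median of −0.996. Neither Hsd3b5 nor Mup7 passed between doses: Hsd3b5 was 61.2 ± 63.2 CPM (SD, n = 3) at 0.1x (1x minus 0.1x −0.30 ± 0.56, adjusted p = 0.763) and Mup7 391 ± 395 CPM (SD, n = 3) (−0.85 ± 0.70, adjusted p = 0.445). Apol9a likewise did not pass between doses (0.45 ± 0.19, adjusted p = 0.12), with 45 ± 4.07 CPM (SD, n = 3) at 0.1x.

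Against the Standard diet, 2739 genes differed at 1x (19.8%; 1374 higher, 9.91%, and 1365 lower, 9.84%), 1713 without 1x sample 2 and 1740 without Standard diet sample 5. Once the GC and length trend was taken out, 1056 were higher and 1795 lower. Plin2 at 1x was still above its Standard diet level of 410 ± 27.3 CPM (SD, n = 3), by 0.66 ± 0.13 (adjusted p = 0.0029), and Cidec by 5.45 ± 0.32 (adjusted p = 1.15e-07). C8b stayed below, by −1.43 ± 0.23 (adjusted p = 0.00058). Manf (−0.92 ± 0.15, adjusted p = 0.00086) was lower at 1x than on the Standard diet, and Irgm2 (0.94 ± 0.15, adjusted p = 0.000558) was higher, so that for these genes the 1x level lay beyond that of livers on either diet alone. For Tk1 (−0.32 ± 0.17, adjusted p = 0.192), H2-Q7 (−0.03 ± 0.13, adjusted p = 0.909) and Apol9b (0.03 ± 0.18, adjusted p = 0.927) no difference from the Standard diet was detected.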

How the data were processed

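Liver RNA was extracted with a column kit, and stranded poly(A) libraries were made and sequenced from both ends, per the labels' protocols. Reads were aligned with STAR 2.7.3a to mm10, per the submitters' processing notes; for counting, the tool, strand setting and annotation are not stated (not given in the sources used here). Hence overlapping, antisense and near-identical genes are uncertain. The authors deposited raw counts for 55471 gene IDs in 12 columns, with 0 columns outside the samples. Of these IDs 55230 matched GENCODE vM21. The test used edgeR 4.0.16 (R 4.3.3): filterByExpr on the 4 groups kept the genes, TMM gave the size factors, and the quasi-likelihood model was fitted to the 12 libraries together. Tests were two-sided F tests with Benjamini-Hochberg adjustment over 13866 genes, SE is the log2 fold change over the square root of F, and CPM is TMM-scaled. The fit was tested on simulated data. The comparison and the gene lists were chosen with earlier results of these data known.

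Named genes were the 10 largest rises and falls that passed with groups apart and a mean of 1 CPM or more in the higher one, up to 3 that passed per list and direction, up to 2 of a list with none, and a set of liver genes whatever their result. Other list members named were chosen after their values were seen. Samples with the same number in their titles did not deviate together (correlations −0.00693 and −0.1), so no pairing was used. With so few samples these correlations cannot exclude a link. Alternatives were other scalings, filters and thresholds, DESeq2 1.42.0, a fit to 6 libraries, removal of a GC and length trend, a replicate block, and each library left out. Promoter windows came from RefSeq (GRCm38.p6), and the first window listed for each gene was used. Some genes of the lists are not reported here.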

Additional observations from a re-analysis of the deposited data

How the results depend on the processing

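Against the 431 genes passed (207 higher, 224 lower), DESeq2 gave 825 (407 and 418), a fit to only the 6 libraries 1013 (503 and 510), no filter on low counts 1131 (515 and 616), and removal of the GC and length trend 653 (387 and 266). An adjusted p under 0.01 left 91 (49 and 42), and a fold of at least 2 left 186 (69 and 117). Other size factors and a filter at a mean of 1 CPM gave 413 to 435. With 1 library left out, 84 to 395 passed, 43 to 163 higher and 41 to 232 lower.

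The labels do not say whether a shared number links samples, and the correlations of same-numbered samples cannot exclude it. A replicate block by title number left 53 (34 and 19), a block by library name number 26 (19 and 7), and the title block with the GC and length trend removed 95 (61 and 34).

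For 1x against 0.1x (1802; 989 and 813), removal of the trend gave 575 (270 and 305), and 1 library left out 219 to 1857 (137 to 990 and 82 to 867). For 1x against the Standard diet (2739; 1374 and 1365), removal of the trend gave 2851 (1056 and 1795), and 1 library left out 1713 to 2579 (869 to 1303 and 835 to 1276). Of the 100 named genes that passed, none changed direction in any alternative run. They passed in these same data, so their unchanged direction is no separate check. Of them, 98 still passed with DESeq2 and 98 with the trend removed, and 23 held with each library left out. Fewer passed with a replicate block: 26 by title number, 11 by library name number, and 34 by title number with the trend removed. Medians of all genes moved by less than 0.1 (log2) in every scaling. Genes of a few counts, germline genes above all, are limited by depth.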

Other observations

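Genes of the cytoskeleton and membrane scaffold, families picked here after their values were seen, fell as well, and are given as a description. Of 13 tubulin genes, 4 fell and 0 rose, 12 were below 0 and the median log2 fold change was −0.54. Of these 4, 1 held with each library left out, and the other 3 passed in 1 or 2 of the 6 such fits. Tubb2a, a beta-tubulin, had the smallest adjusted p of the falls: it measured 108, 109 and 119 CPM in the MASLD samples and 34.7, 34.7 and 36.5 CPM in the 1x samples (−1.67 ± 0.15, adjusted p = 0.000128 by edgeR). Of 9 annexins, 2 fell, and Anxa2 went from 70.5, 77.5 and 47.3 to 9.48, 13.9 and 17.5 CPM (−2.26 ± 0.25, adjusted p = 0.000331). Both held with each library left out, and the 1x values lay near those of the Standard diet (27.7 ± 5.17 and 9.37 ± 2.36 CPM, SD, n = 3). Of 25 actin-binding and tropomyosin genes, 8 fell and 0 rose, with a median of −0.31, and each of the 8 passed in 0 to 2 of the 6 fits with a library left out. Over all genes 1.62% fell. Families picked in the same way that moved less evenly were the S100 proteins (2 of 8 fell, 4 above and 4 below 0) and cytosolic heat shock proteins (1 of 24 rose and 2 fell, 11 above and 13 below 0).

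The cold-inducible RNA-binding proteins Cirbp (0.95 ± 0.18, adjusted p = 0.0123) and Rbm3 (0.68 ± 0.15, adjusted p = 0.0258) both rose, though Cirbp passed in 3 and Rbm3 in 1 of the 6 fits with a library left out. Of 4 Apol genes tested, 3 rose, Apol7a by 1.21 ± 0.12 (adjusted p = 0.000187). Urad, an enzyme of uric acid breakdown, was 2.17, 2.23 and 6.07 CPM in the MASLD samples and 15.6, 12.6 and 11.7 CPM in the 1x samples (1.93 ± 0.33, adjusted p = 0.00741, and 0.0502 without MASLD sample 4).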
